A study of Canis lupus familiaris with 6 samples.

Results

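The Mediator genes were followed in HU-HSA-2, a dog cell line of hemangiosarcoma, a cancer that resembles the lining of blood vessels. PolyA RNA was sequenced in 6 libraries, 3 labelled as controls, for which the protocol names DMSO, and 3 from cells exposed over 72 hours to (R)-GNE-140, which inhibits lactate dehydrogenase. The sources used here give no dose, and all libraries come from 1 cell line. Values are TPM, a relative transcript abundance scaled to a fixed library total, which corrects for gene length. Members were the rows named MED and a number, with an L suffix allowed, plus CDK8, CDK19 and CCNC, which gave 32 of 20500 rows. MED12 matched no row name and is not analysed here. The rule itself uses names, but the group was proposed, and MED26 set apart in it, because MED26 was known to be among the genes that fell most in this same comparison. Differences between treated and control cells are therefore given as a description, and no p-value is given for MED26.

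Mediator is a large protein complex that carries signals from DNA-bound transcription factors to RNA polymerase II at promoters. Its head and middle modules contact the polymerase, its tail module is the main docking site of activators, and MED14 is the backbone that joins them. A separable kinase module, built of CDK8 or CDK19, cyclin C (CCNC), MED12 or MED12L and MED13 or MED13L, binds the core reversibly and keeps it from the polymerase. MED26 is a metazoan subunit of the middle module that is found mainly in Mediator lacking the kinase module. In human cells its N-terminal domain, which resembles that of the elongation factor TFIIS, has been shown to bind the initiation factor TFIID and the super elongation complex.

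The libraries held 13379 to 13861 genes with a TPM above 0, and their depth is unknown because TPM keeps none. Of 14 endothelial markers, 13 had a mean of at least 1 TPM, among them PECAM1 (304 to 363 TPM) and CLDN5 (579 to 848 TPM), while VWF was at 0.02 to 0.13 TPM. Their summed level was 1755 to 1939 TPM in controls and 1584 to 1671 TPM after treatment. Markers of other cells were low. The sum of 6 immune markers was 5.45 to 5.86 TPM in controls and 6.56 to 7.48 TPM after treatment, with CD3E at 0. Most of that sum was CD14, at 4.81, 4.50 and 4.18 TPM in controls and at 5.72, 5.65 and 6.40 TPM after treatment. The sum of 7 fibroblast and smooth muscle markers was 3.25 to 3.61 and 3.81 to 6.05 TPM, with COL3A1 at 0. Of 4 epithelial markers listed, KRT8 had no single matching row, and EPCAM, CDH1 and KRT18 summed to at most 0.26 TPM. Within each list with tested genes, the smallest limma p-value belonged to FLT1 (endothelial), CD14 (the only immune marker tested) and COL1A1 (fibroblast and smooth muscle). None of these passed over all genes (log2 0.51, 0.33 and 0.50, limma adjusted p = 0.0739, 0.119 and 0.134). The endothelial markers EMCN and CLDN5 had smaller p-values than COL1A1 and did not pass either (log2 -0.19 and -0.27, limma adjusted p = 0.0940 and 0.125). FLT1 rose against the direction of its list, as the 13 tested endothelial markers had a median log2 difference of -0.07, with CLDN5 the lowest at -0.27. ERG and ICAM2 were also above 0 (0.10 and 0.09). Of the 13, 4 had an unadjusted limma p under 0.05 (FLT1, EMCN, CLDN5 and PECAM1), against 17.9% of all genes tested. In 5 of the 13 the groups did not overlap, against 23.1% of all genes tested. The part of these marker shifts in the values below was not tested.

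In control cells 25 of the 32 Mediator genes had a mean between 10 and 60 TPM. All modules were represented at these levels, and the gene with the highest level was MED28, a small subunit at the junction of head and tail, at 235, 236 and 263 TPM. CCNC, the cyclin of the kinase module, followed at 82.8, 92.7 and 80.6 TPM, and MED31, a small middle subunit, at 84.1, 78.3 and 83.0 TPM. At the lower end were MED18, a head subunit, at 6.91, 7.43 and 5.84 TPM, and MED12L at 0.14, 0.23 and 0.11 TPM, the only one of the 32 under the mean of 1 TPM needed for a test. When the genes were ordered by their control mean, 12 of the 31 pairs of neighbours had control values that did not overlap. MED28 stood above CCNC in this sense and MED18 above MED12L, whereas CCNC and MED31 overlapped, as did the run from MED4 through MED16, MED6, MED17 and MED15 to MED1, each with the next. MED26 held place 16. Its control values lay below all those of MED29, the next higher, and overlapped those of MED24, the next lower.

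**Figure D1:**
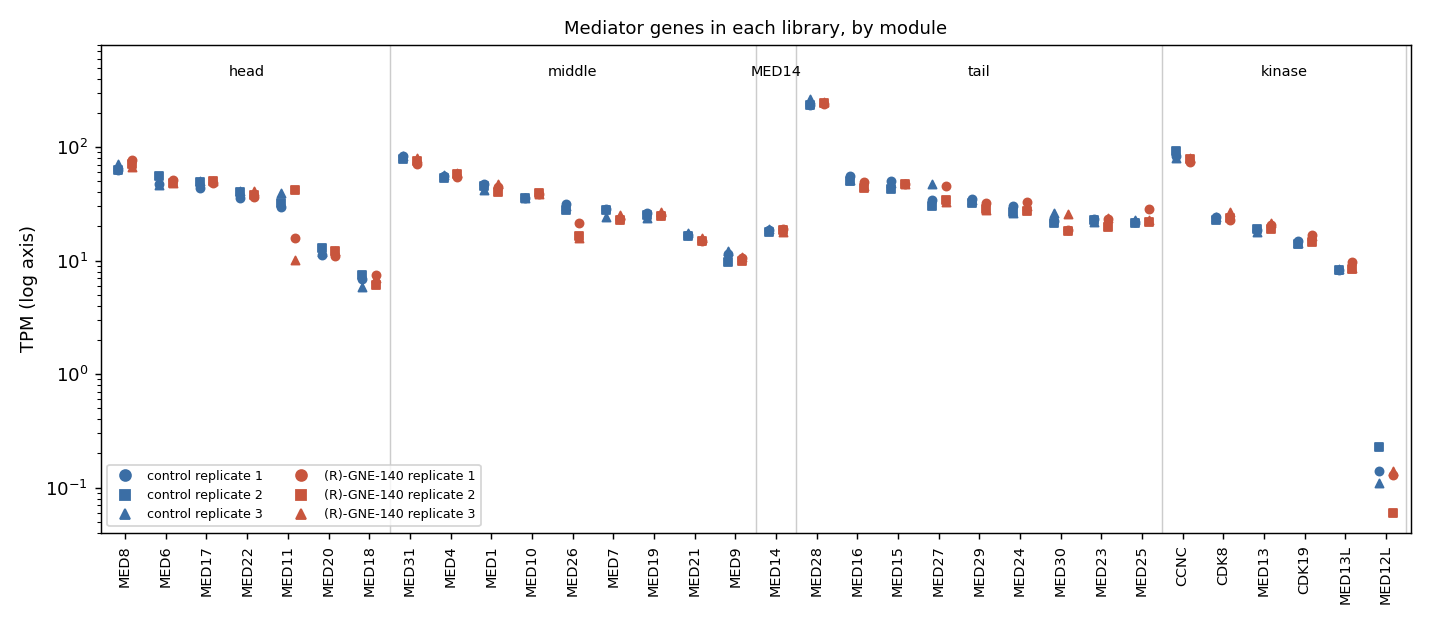
TPM of the 32 Mediator genes (log axis) in each of the 3 control and 3 (R)-GNE-140 libraries, grouped by module and ordered by control mean within it; each symbol is a library. Most genes lie between 10 and 60 TPM with the groups overlapping, MED26 lies lower in all 3 treated libraries, and MED11 is spread from 10.1 to 41.9 TPM after treatment.

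MED26 (ENSCAFG00845029764) was at 31.6, 27.8 and 30.4 TPM in control libraries and at 21.5, 16.5 and 15.8 TPM after (R)-GNE-140. Every treated library lay below every control library, with treated replicate 1 the nearest to the controls. The means were 29.9 ± 1.95 and 17.9 ± 3.09 TPM (SD, n = 3 each), a level 40.2% lower after treatment. On the log2(TPM + 1) scale, which slightly understates changes at such levels, the difference was -0.72 with an SE of 0.11. Among the 32 Mediator genes MED26 went from place 15 or 16 in the control libraries to place 21 in treated replicate 1 and place 25 in treated replicates 2 and 3. In bulk RNA of this kind, fewer cells that make a transcript and less of it per cell cannot be told apart.

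Of the 31 Mediator genes tested, 1 passed an adjusted p of 0.05 by limma over all genes, and this was MED26, where 3.03% of all 10874 genes tested passed with 1.72% lower and 1.31% higher. Because MED26 was singled out in this comparison, nothing is read from that count. MED26 passed in 3 of the 6 fits that left out a library, while without control replicate 1, treated replicate 2 or treated replicate 3 it no longer passed, at log2 differences of -0.68, -0.67 and -0.64. Unadjusted limma p-values were under 0.05 for 4 Mediator genes, against 17.9% of all genes tested, and in 5 the groups did not overlap, against 23.1%. The other 30 tested genes had a median log2 difference of 0.0015, beside 0.0040 over all genes tested, with 16 above 0 and 14 below. Leaving MED11 aside as well, they ran from -0.19 to 0.13, and these 29 lay between the 5th percentile (-0.26) and the 95th percentile (0.31) of all genes tested. Summed without MED26, the Mediator genes took 1218, 1210 and 1268 TPM of the control libraries and 1211, 1199 and 1217 TPM of the treated ones, so the sums overlapped.

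**Figure D2:**
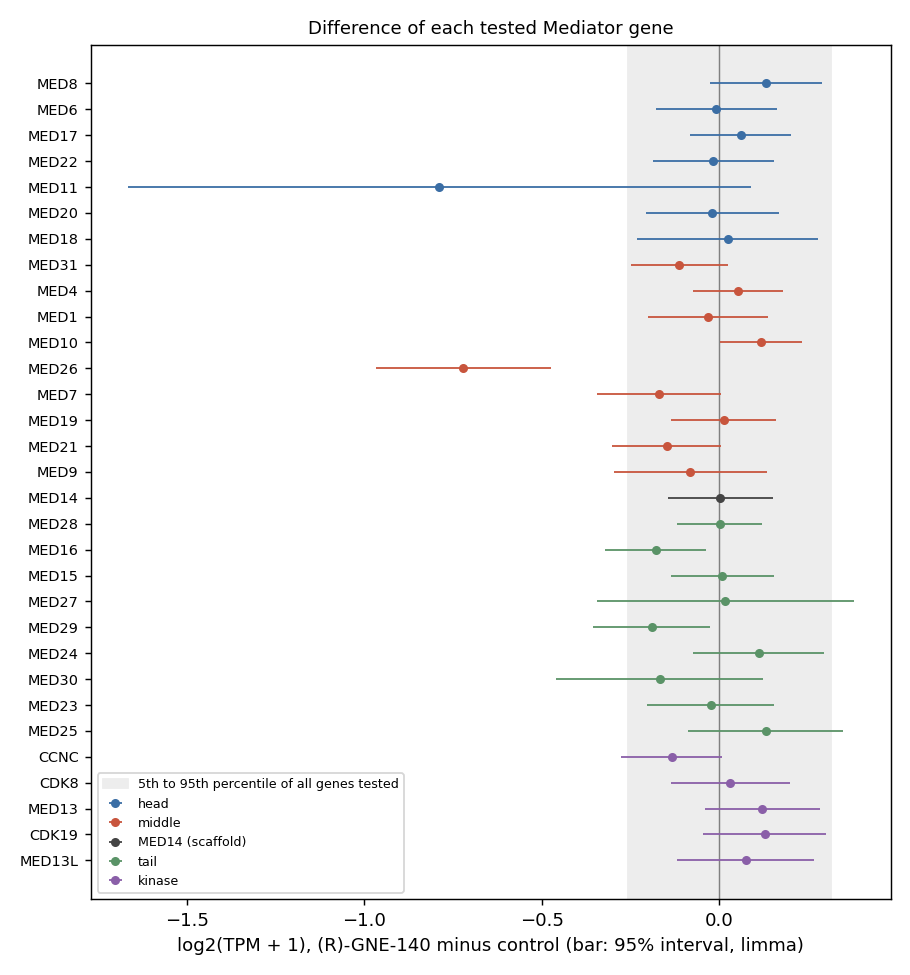
Difference in log2(TPM + 1) between (R)-GNE-140 and control for the 31 tested Mediator genes, coloured by module, with the 95% interval from limma; the grey band spans the 5th to 95th percentile of all genes tested. MED26 at -0.72 and MED11 at -0.79 lie left of the band, MED11 with an interval from -1.67 to 0.09, and the other 29 lie inside it.

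The middle module, to which MED26 belongs, also holds MED1, the subunit that nuclear receptors bind. Without MED26 its 8 genes had a median log2 difference of -0.06, from -0.17 for MED7 to 0.12 for MED10, and none passed over all genes by limma (MED10 was the only one of them at an unadjusted p under 0.05). MED1 was at 47.6, 45.1 and 42.1 TPM in controls and at 44.1, 40.1 and 47.6 TPM after treatment, with the groups overlapping. MED10, a small core subunit, was at 35.8, 35.6 and 35.8 TPM and then at 38.8, 39.4 and 38.5 TPM. The treated values of MED10 were all higher, by a log2 of 0.12 (SE 0.05, limma adjusted p = 0.277), and did not pass. MED21, which pairs with MED7 in a long hinge, was at 16.6, 16.5 and 17.7 TPM in controls and 15.0, 14.8 and 15.7 TPM in treated cells. All 3 treated values of MED21 were lower, by a log2 of -0.15 (SE 0.07, limma adjusted p = 0.293), which did not pass either. Of the most and least abundant middle genes, MED31 was at 70.8, 75.4 and 80.7 TPM after treatment, overlapping its controls, and MED9 was at 11.4, 9.68 and 12.2 TPM and then at 10.5, 9.85 and 10.8 TPM. MED4, MED7 and MED19 had control means of 55.3, 26.9 and 25.2 TPM and treated means of 57.4, 23.7 and 25.4 TPM, with overlapping groups.

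Within each library MED26 can be set against genes of its own module. The ratio of MED26 to the median of the other 8 middle genes was 0.980, 0.878 and 1.01 in controls and 0.672, 0.516 and 0.485 after treatment. Against MED14, the backbone, it was 1.70, 1.57 and 1.61 and then 1.13, 0.881 and 0.890. MED14 itself was at 18.6, 17.8 and 18.9 TPM in controls and at 18.9, 18.7 and 17.7 TPM after treatment, with a log2 difference of 0.0021 and a 95% interval of -0.15 to 0.15. In both ratios the treated values lay below all the controls. MED26 was set apart for its fall in this comparison, so the ratios describe that fall again and are no separate support.

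**Figure D3:**
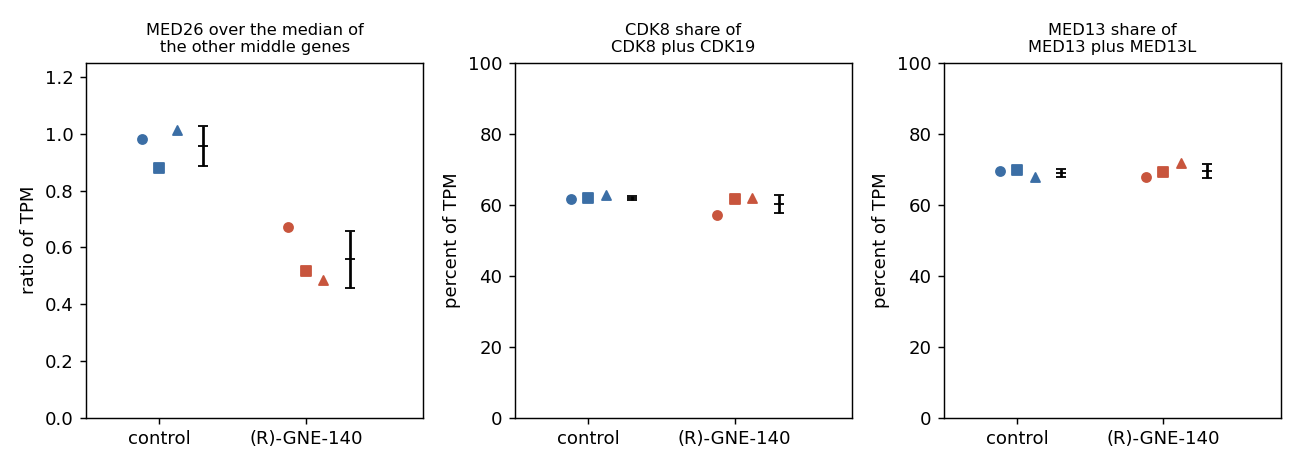
Ratio of MED26 to the median TPM of the other 8 middle module genes (left), share of CDK8 in the summed TPM of CDK8 and CDK19 (middle) and share of MED13 in that of MED13 and MED13L (right) in each library; bars are the mean ± SD of 3 libraries. The MED26 ratio is 0.957 ± 0.070 in controls and 0.558 ± 0.101 after (R)-GNE-140, without overlap, whereas both paralog shares overlap between the groups.

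The kinase module showed no call. Its 5 tested genes had a median log2 difference of 0.07, and none passed at an adjusted or an unadjusted limma p of 0.05. CDK8, the kinase, was at 23.98, 22.8 and 24.2 TPM in controls and at 22.6, 23.6 and 26.6 TPM after treatment. Its paralog CDK19 was at 14.99, 14.1 and 14.4 TPM and then at 16.9, 14.6 and 16.4 TPM, and in both kinases the groups overlapped. CDK8 made up 62.0% ± 0.602 of the TPM of the pair in controls and 60.3% ± 2.61 after treatment (SD, n = 3 each), where the lower treated mean came from replicate 1 at 57.3%. MED13, which links the kinase to the core, was at 18.8, 19.2 and 17.8 TPM and then at 20.5, 18.9 and 21.6 TPM, and its paralog MED13L at 8.29, 8.31 and 8.50 TPM and then at 9.71, 8.39 and 8.52 TPM. MED13 held 68.9% ± 1.09 of that pair in controls and 69.6% ± 1.98 in treated cells. CCNC was at 74.6, 77.9 and 80.4 TPM after treatment, all below its controls, at a log2 difference of -0.13 (SE 0.06, limma adjusted p = 0.309) that did not pass. MED12L was at 0.13, 0.06 and 0.14 TPM after treatment, near the rounding step of the file, and no fold is given.

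The head module contacts the polymerase, with MED17 as its central subunit. Its 7 genes had a median log2 difference of -0.0093 and none passed by limma, at an adjusted or an unadjusted p of 0.05. MED17 was at 43.8, 48.9 and 50.2 TPM in controls and at 48.7, 49.9 and 50.2 TPM after treatment. MED8, the most abundant head gene, was at 62.8, 62.8 and 70.6 TPM and then at 77.1, 71.3 and 66.9 TPM, and MED18, the least abundant, at 7.43, 6.05 and 7.06 TPM after treatment. In all 3 genes the groups overlapped. So did those of MED6, at 46.7 to 55.9 TPM over the 6 libraries, and of MED20, at 10.97 to 12.9 TPM.

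MED11, a small head subunit that pairs with MED22, was chosen for description after its values were seen. It was at 29.9, 31.9 and 39.7 TPM in controls and at 15.8, 41.9 and 10.1 TPM after treatment. Treated replicates 1 and 3 lay below every control and treated replicate 2 above every control. Its SD among treated libraries was 1.0 on the log2(TPM + 1) scale, at percentile 99.6 of all genes tested, and 0.21 among controls, at percentile 88.9. The log2 difference of -0.79 (SE 0.39) did not pass (limma adjusted p = 0.333). It passed in 1 of the 6 fits that left out a library, at -1.34 (limma adjusted p = 0.0219). That fit left out treated replicate 2, the only treated value above the controls, so nothing is read from it. In the other fits the difference ran from -0.87 to -0.36 and did not pass. MED22, its partner, was at 35.3, 40.2 and 41.5 TPM in controls and at 36.5, 37.8 and 41.2 TPM in treated cells, where the libraries did not split in that way. The median SD over tested Mediator genes was 0.089, beside 0.095 over all genes tested. MED11 had the highest SD of them, at 0.72 over both groups, followed by MED27 at 0.29 and MED30 at 0.22, while MED10 had the lowest at 0.012.

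The tail module receives many activators. Its 9 genes had a median log2 difference of 0.0009, and 0 passed over all genes by limma, with MED16 and MED29 at an unadjusted p under 0.05. MED16, one of the large tail subunits, was at 55.4, 49.9 and 51.5 TPM in controls and at 48.8, 43.9 and 45.3 TPM after treatment. All treated MED16 values were below the controls, by a log2 of -0.18 (SE 0.06, limma adjusted p = 0.171). MED29 was at 34.7, 32.1 and 34.4 TPM and then at 32.4, 28.3 and 27.8 TPM, and treated replicate 1 overlapped the controls. MED28, at 240, 244 and 250 TPM after treatment, overlapped its controls. MED25, the least abundant tail gene and a target of the ETS factors in human cells, was at 21.9, 21.3 and 22.8 TPM and then at 28.5, 21.8 and 22.7 TPM, with treated replicate 1 apart from the rest. MED27 varied in each group, at 34.2, 30.5 and 47.1 TPM in controls and at 45.5, 34.2 and 32.7 TPM in treated cells. MED23, MED24 and MED30 had control means of 22.6, 27.8 and 23.2 TPM and treated means of 22.3, 30.2 and 20.7 TPM, and their groups overlapped. Structures differ on whether MED27 to MED30 belong to the head or the tail. Placed in the head, they gave a head median of -0.0093 and left a tail median of 0.0083.

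MED15 is the tail subunit that the sterol regulators of the SREBP family are known to bind. It was at 50.1, 43.0 and 47.9 TPM in controls and at 47.1, 47.1 and 47.3 TPM after treatment, a log2 difference of 0.0083 with a 95% interval of -0.14 to 0.15. A list of 14 transcription factors known to bind Mediator was drawn up with earlier results of these data known, so its counts are only a description. Of its 12 tested genes, 2 fell, 0 rose and 10 did not pass, where 3.03% of all genes tested passed and 1.72% were lower. Both were SREBP genes, SREBF2 at 38.2, 35.6 and 38.6 TPM and then at 26.0, 22.4 and 23.5 TPM, and SREBF1 at 28.1, 25.1 and 27.1 TPM and then at 19.8, 16.4 and 19.6 TPM. Their log2 differences were -0.63 and -0.50. That of SREBF1 lost its call without control replicates 1 or 3 or treated replicate 3 (limma adjusted p = 0.0761, 0.0549 and 0.0528). With all libraries it also lost its call without the filter on low values (limma adjusted p = 0.0556) and without the variance trend (0.0509).

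The position of MED26 in the genome was compared with its neighbours, an order taken from the RefSeq gene table of the dog assembly UU_Cfam_GSD_1.0, which may not be the build of the files. The 3 protein-coding genes on one side were SLC35E1, CHERP and C20H19orf44, and on the other SMIM7, TMEM38A and NWD1, of which SMIM7 is not analysed here. SLC35E1, next to MED26 and at a like level, was at 32.3, 32.2 and 34.9 TPM in controls and at 31.1, 31.1 and 31.9 TPM after treatment. All of its treated values were below the controls, at a log2 difference of -0.08 (SE 0.06, limma adjusted p = 0.558). CHERP was at 36.7, 32.0 and 33.3 TPM and then at 36.7, 33.4 and 36.2 TPM, overlapping, and C20H19orf44 overlapped as well. TMEM38A stayed between 0.71 and 1.60 TPM and NWD1 below the filter. Around MED11, the neighbours ARRB2 (23.1 to 26.9 TPM) and PELP1 (38.1 to 46.5 TPM) did not share its spread. CXCL16, on its other side, was at 4.25, 4.18 and 2.84 TPM in controls and at 8.28, 5.08 and 4.53 TPM after treatment, a log2 difference of 0.53 (SE 0.20, limma adjusted p = 0.205) that did not pass.

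**Figure D4:**
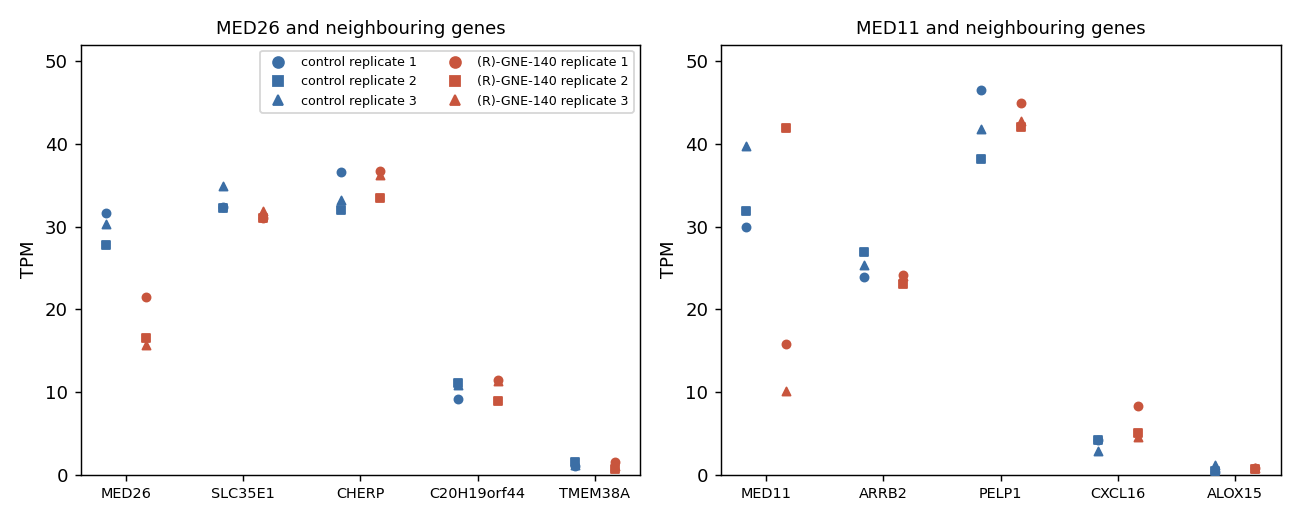
TPM in each library of MED26 (left) and MED11 (right) beside neighbouring protein-coding genes of the RefSeq order; each symbol is a library. MED26 is lower in all 3 treated libraries while SLC35E1 and CHERP stay between 31.1 and 36.7 TPM, and MED11 splits from 10.1 to 41.9 TPM among treated libraries while ARRB2 and PELP1 do not.

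The partners of Mediator in transcription were looked at through lists of genes. Their counts stand beside 3.03% of all genes tested that passed by limma and 17.9% at an unadjusted p under 0.05. In the super and little elongation complexes, which MED26 recruits in human cells, 0 of 14 tested genes passed by limma over all genes and 2 had an unadjusted p under 0.05 (ICE2 and ELL2), with a median log2 difference of 0.09. AFF4, the scaffold of the super elongation complex, was at 29.5, 28.2 and 28.8 TPM in controls and at 31.7, 27.7 and 32.4 TPM after treatment. ICE2, a subunit of the little elongation complex, was at 29.2 ± 0.858 and 32.8 ± 1.29 TPM (log2 0.16, limma adjusted p = 0.188). TFIID subunits had 0 of 13 past the threshold by limma and 0 at an unadjusted p under 0.05, with a median of -0.0068. TAF6 had the smallest p of them, at 33.4 ± 1.54 and 36.3 ± 1.94 TPM (log2 0.11, limma adjusted p = 0.412), and TAF7, which binds MED26 in human cells, was at 59.4, 61.4 and 63.7 TPM and then at 58.3, 60.7 and 57.0 TPM.

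The remaining machinery lists also had no member past the threshold by limma, and their counts at an unadjusted p under 0.05 stand beside 17.9% of all genes tested. RNA polymerase II subunits had 3 of 11 at an unadjusted p under 0.05 and a median of -0.02, and POLR2E, a subunit shared by the RNA polymerases, was at 335 ± 12.1 and 297 ± 11.4 TPM (log2 -0.17, limma adjusted p = 0.0934), a difference that passed under median-of-ratios scaling (0.0446). General transcription factors had 2 of 17 and a median of 0.06, led by GTF2E2 of TFIIE at 47.8 ± 2.08 and 55.7 ± 0.729 TPM (log2 0.22, limma adjusted p = 0.0677). Pausing and elongation factors had 3 of 14 and a median of 0.02, with SUPT6H at 32.4 ± 0.737 and 37.8 ± 3.51 TPM. Of 7 tested proteins with a domain like that of TFIIS, the kind MED26 carries, 1 had an unadjusted p under 0.05, and this was PPP1R10, a phosphatase subunit, at 38.5 ± 3.10 and 45.2 ± 1.59 TPM (log2 0.23, limma adjusted p = 0.115). TCEA1, the general TFIIS gene, was at 141, 137 and 141 TPM and then at 132, 136 and 140 TPM. Integrator, a complex that cleaves nascent RNA, had 0 of 15 at an unadjusted p under 0.05 and a median of 0.03, with INTS14 at 24.1 ± 0.405 and 26.1 ± 0.307 TPM (log2 0.11, limma adjusted p = 0.367).

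**Figure D5:**
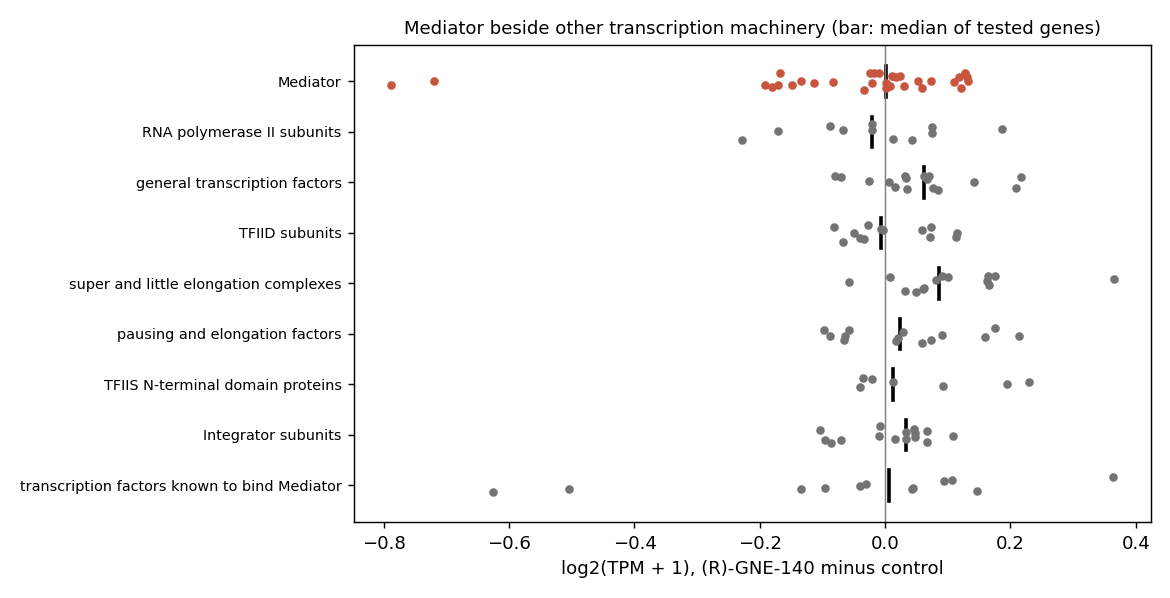
Difference in log2(TPM + 1) between (R)-GNE-140 and control for the tested Mediator genes (red) and for 8 lists of other transcription genes (grey); each point is a gene and the bar is the median of the list. Medians lie between -0.02 and 0.09, and beside MED26 and MED11 only SREBF2 and SREBF1 lie below -0.50.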

How the data were processed

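The deposited table gives TPM per gene and library to 2 decimals. STAR, RSEM and edgeR 3.42.0 are named, per the submitters' processing notes; their order and settings, and the genome build, were not given in the sources used here. Library names in the headers gave the groups. The 10874 genes whose TPM averaged 1 or more across libraries, 31 of them Mediator genes, entered a limma fit (version 3.58.1, R 4.3.3) of treatment on log2(TPM + 1), with a mean trend in the moderated variances, 2-sided tests and Benjamini-Hochberg adjustment over all genes tested at 0.05. TPM keeps no depth, so there was no count test and precision rests on 3 libraries a group. The labels do not say that replicates were separate cultures, so a p-value here reflects sample-to-sample spread alone, possibly technical. Near-identical gene copies may share reads in estimates of this kind. Members, modules and lists were chosen with earlier results of these data known. Values per library are given for MED26, for members past the threshold or with groups that do not overlap, for the highest and lowest gene of each module and for paralog pairs, and others named were chosen after their values were seen. Of each list, the members past the threshold (at most 4) or else the one with the smallest p are named. Only the limma fit was tried on simulated data, with independent noise. The planted differences exceeded those of most Mediator genes, so smaller ones were not covered. Alternatives covered the pseudocount, filter, scaling, variance trend, replicate block and each library left out. Figures were drawn with matplotlib 3.10.9.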

Additional observations from a re-analysis of the deposited data

How the results depend on the processing

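The log2 difference of MED26 stayed negative under every alternative run, from -0.75 (pseudocount 0.1) to -0.62 (pseudocount 5) with all libraries and from -0.85 to -0.64 with 1 library left out, and it did not pass without control replicate 1 (-0.68), treated replicate 2 (-0.67) or treated replicate 3 (-0.64). MED26 was chosen on this comparison, so these values describe it and are no test of stability. The count of Mediator genes past the threshold was 1 in each setting with all libraries and ran from 0 to 1 with 1 library left out, where the 1 without treated replicate 2 was MED11. The median of the other Mediator genes ran from -0.02 to 0.02 and changed sign, always within the spread between libraries. The 5 Mediator genes whose groups did not overlap became 8 under median-of-ratios scaling and 7 under quantile normalization, where 26.0% and 25.8% of all genes did not overlap against 23.1%. With 1 library left out, and so fewer values to overlap, there were 7 to 11, and 30.9% to 36.2% of all genes. Of all genes, 329 passed, against 168 without the filter on low values, 159 without the variance trend, 163 with the replicate block, and 74 to 185 with 1 library left out; the cause was not tested. Deviations of same-numbered libraries from their group means correlated at r = 0.036, 0.0093 and -0.098, and those of the other pairs at -0.11 to 0.096. With 3 libraries a group, such values cannot tell whether same-numbered libraries were paired. With the replicate block the log2 difference of MED26 was -0.72, which a block cannot change in a balanced design, so this is no check. Depth is unknown, so low values such as those of MED12L cannot be given a counting error.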
